A study of Mus musculus with 26 samples.

Results

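The transcripts described here encode voltage-gated sodium channels, the pore proteins and accessory subunits with which sensory neurons fire action potentials. The members were a list of 9 genes given by symbol, 6 alpha subunits (*Scn1a*, *Scn3a*, *Scn8a*, *Scn9a*, *Scn10a* and *Scn11a*) and 3 beta subunits (*Scn2b*, *Scn3b* and *Scn4b*), out of 55401 genes in the tables. All 9 were found by Ensembl identifier, and all 9 passed the filter on low counts in every fit. RNA sequencing was carried out on dorsal root ganglia of mice (DRG; they hold the cell bodies of sensory neurons beside the spinal cord) in 26 libraries that fall into 10 groups.

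The study compared mice in which the aryl hydrocarbon receptor gene *Ahr* was to be deleted (conditional knockout, cKO; genotype label Ahr f/f Thy1-CRE(ERT2/EYFP)) with controls without Cre. The Cre is tamoxifen-inducible and driven by *Thy1*, a gene of neurons. Control mice of the naive and crush groups were labelled Ahr fl/+ (replicates 1 and 2) or Ahr fl/fl (replicate 3), so that control animals also carried floxed alleles. Naive and crush mice of both genotypes were given tamoxifen at 28 weeks of age (100 mg/kg on each of 5 days). Their lumbar DRG were collected 5 weeks later, the crush groups 1 day after sciatic nerve crush (3 mice per genotype in each group). A supplemental set held semi-purified DRG neurons 24 hours after seeding (3 control, all Ahr fl/fl, and 3 cKO libraries) and DRG taken 1 day after a sham operation, on the ipsilateral and the contralateral side of 2 control mice (Ahr f/+ and Ahr fl/fl) and 2 cKO mice. For this supplemental set the labels state no tamoxifen. Naive mice and neurons were labelled female, sham mice male, and each crush group held 1 mouse labelled male. Collection fell 2 to 4 hours after lights on.

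Library totals were 20169388 to 23540375 counts in naive and crush ganglia, 25299938 to 88180611 in neurons and 39306414 to 58751270 in sham ganglia. *Ahr* was at 25.0 ± 2.80 CPM (the scaled read count of a gene relative to its library's total) in naive cKO and 22.2 ± 2.87 CPM in naive control ganglia (SD, n = 3 each), and was not called between genotypes in crush, neuron or sham libraries either (neurons 49.1 against 50.8 CPM). Counts over a whole gene need not show the loss of an exon, so this value does not check the deletion. *Thy1* was higher in every cKO library than in any control library of its set. The genotype names follow the labels. The injury gene *Atf3* was at 13.4 CPM in naive and 671 CPM in crush control ganglia, and at 13.3 and 646 CPM in cKO ganglia (edgeR adjusted p 3.47e-08 and 3.84e-08). By *Xist* and Y-linked counts, 2 of 26 libraries went against the labelled sex: crush control replicate 3 was female and crush cKO replicate 2 was male. In sham ganglia, 1 library stood apart by muscle RNA: 5 skeletal muscle markers summed to 1750 CPM in ipsilateral cKO replicate 2 and to at most 377 CPM in any other library. Pan-neuronal markers were present in all libraries, from 2730 to 6040 CPM over 9 genes. In the neuron cultures, markers of other cells were also present, with endothelial markers at 863 to 1300 CPM over 5 genes against 65.8 to 148 CPM in ganglia.

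Each alpha subunit forms a complete pore of linked repeats, and beta subunits attach to it and adjust its gating and its place in the membrane. In DRG, the channels encoded by *Scn10a* (Nav1.8) and *Scn11a* (Nav1.9) are typical of nociceptors, the neurons that sense damage, and are resistant to the toxin tetrodotoxin. The channels of *Scn1a* (Nav1.1), *Scn8a* (Nav1.6) and *Scn9a* (Nav1.7) are blocked by it. *Scn1a* and *Scn8a* are prominent in large, myelinated neurons, *Scn9a* is known for inherited pain disorders, and *Scn3a* (Nav1.3) is mainly an embryonic channel.

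The codon that separates tetrodotoxin-resistant from sensitive alpha subunits is shown because the members are divided by that property in the results. Each line, for 5 of the 6 alpha subunits, is a 27-base stretch of coding sequence of the pore loop of the first repeat, 5′ to 3′, from the GENCODE M21 transcripts of GRCm38, with the codon in capitals. An aromatic residue, tyrosine in the 3 sensitive channels shown, is that of sensitive channels, and serine is that of the resistant ones.
Scn3a (codon 384, tyrosine): atgactcaagacTACtgggagaacctt
Scn8a (codon 371, tyrosine): atgactcaggacTACtgggagaactta
Scn9a (codon 362, tyrosine): atgactcaggacTACtgggagaacctt
Scn10a (codon 356, serine): atgacgcaggacTCCtgggaacggctg
Scn11a (codon 385, serine): atgactcaagacTCCtgggagaagctt
The sixth alpha subunit is not reported here, so these lines do not show the full range of codons among sensitive channels.

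In GRCm38, 3 alpha genes lie on the minus strand of chromosome 2: *Scn3a* (ENSMUSG00000057182.15, chr2:65457118-65567627), *Scn1a* (ENSMUSG00000064329.13, chr2:66270778-66440840) and *Scn9a* (ENSMUSG00000075316.11, chr2:66480080-66634962). Both resistant alpha genes lie beside each other on the minus strand of chromosome 9, *Scn10a* (ENSMUSG00000034533.10) at chr9:119608456-119719322 and *Scn11a* (ENSMUSG00000034115.10) at chr9:119753759-119825456. All 3 beta genes are on the plus strand of the same chromosome: *Scn3b* (ENSMUSG00000049281.16, chr9:40269217-40291618), *Scn2b* (ENSMUSG00000070304.12, chr9:45117782-45130070) and *Scn4b* (ENSMUSG00000046480.6, chr9:45138395-45154152). *Scn8a* (ENSMUSG00000023033.14) is at chr15:100869858-101045938 on the plus strand. *Scn9a* and *Scn2b* are uncertain, because genes on the opposite strand share their position and hold many counts: *Gm13629* had 80.4% of the counts of *Scn9a*, and *Gm10684* had 107% of those of *Scn2b*, in naive and crush ganglia. Exons of *Scn9a* and *Gm13629* share 180 bases, and those of *Scn2b* and *Gm10684* share 0. Whether the counting used strand or included introns is not given in the sources used here. If introns were counted without strand, reads of these pairs cannot be told apart. For the other members, overlapping genes had at most 0.802% of their counts in those ganglia.

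In naive control ganglia the order of transcript levels was led by a beta subunit and the resistant channels. Levels between genes are compared as CPM per kilobase (kb) of exon. *Scn4b*, whose product carries the peptide linked to resurgent sodium current, stood at 139.9 ± 14 CPM per kb (SD, n = 3), followed by *Scn10a* at 87.7 ± 6.04, *Scn11a* at 47.4 ± 3.32 and *Scn3b* at 22.5 ± 0.640. Next came *Scn9a* (16.5 ± 1.32), *Scn1a* (14.6 ± 1.79) and *Scn8a* (13.0 ± 1.87), whose library values overlapped with those of the neighbour in the order. *Scn2b* (8.51 ± 0.980) and *Scn3a* (0.388 ± 0.00714) were lowest, and each was separated from the gene above it in all 3 libraries. *Scn3a* rested on 105 to 119 counts per naive control library. Of the 8 neighbouring pairs, 6 did not overlap. The length used matters: per kb of gene span, introns included, as in the deposited FPKM, *Scn4b* and *Scn10a* still led, but only 4 of 9 members kept the same rank. *Scn2b*, for example, moved above *Scn9a*, *Scn8a* and *Scn1a* (3.22 CPM per kb of span against 1.36, 1.17 and 0.956).

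The first 3 places were the same in naive cKO (143, 102.2 and 58.4 CPM per kb of exon), crush control (119.1, 89.7 and 53.1) and crush cKO ganglia (123, 90.2 and 50.7), but not in the supplemental set. In sham contralateral control ganglia *Scn10a* came first at 141.2 CPM per kb of exon and *Scn4b* second at 116.2. In cultured control neurons the sequence was *Scn10a* (66.1), *Scn11a* (55.5) and *Scn4b* (36.3), each separated from the next in 3 of 3 libraries. In cultured cKO neurons *Scn10a* (64.3), *Scn4b* (50.9) and *Scn11a* (46.7) overlapped. *Scn3a* was last in each of these groups.

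The make-up of the alpha subunits, as shares of their summed CPM per kb of exon, is given as a description without a test. *Scn10a* alone made up 48.9% of the alpha transcripts in naive control and in naive cKO ganglia, 50% and 49.7% after crush, 47.4% and 49.1% in neurons, and 55.2% to 57.3% in the 4 sham groups. *Scn10a* and *Scn11a* together held 75.3 ± 0.976% in naive control and 79.7 ± 1.38% in crush control ganglia (SD, n = 3 each), with no overlap between 74.6% to 76.4% and 78.1% to 80.8%. In cKO ganglia the shares were 76.9 ± 1.23% and 77.7 ± 1.08%, and the libraries overlapped. Neurons had 87.1 ± 2.62% (control) and 84.4 ± 2.41% (cKO), and sham groups 83.9% to 85.3%. The share of *Scn1a* was 8.10% in naive control, 5.48% in crush control, 7.26% in naive cKO, 6.25% in crush cKO, and 1.49% and 2.39% in control and cKO neurons. Sham ganglia differ from naive ganglia in labelled sex, surgery, library depth and stated tamoxifen treatment, and from the cultures in sex, surgery and culture. These cannot be told apart.

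**Figure D1:**
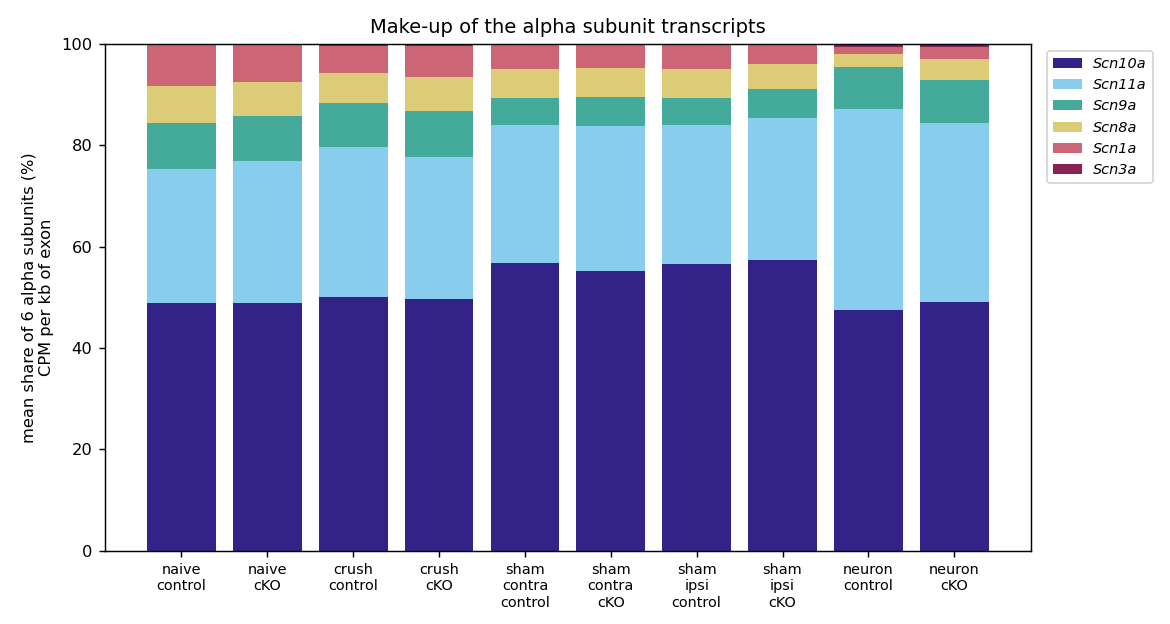
Stacked bars give the mean share (%) of each of 6 alpha subunits in their summed CPM per kb of exon, for each of the 10 groups. *Scn10a* is 47.4% to 57.3% of the total in all groups, and the *Scn1a* segment is smallest in the neurons (1.49% and 2.39%).

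*Scn1a* was lower 1 day after nerve crush in control ganglia. Its level was 140.4, 179 and 169 CPM in the naive control libraries (replicates 1, 2 and 3) and 96.3, 107 and 125 CPM in the crush control libraries. Every crush library was below every naive one. The log2 fold change was -0.58 (SE 0.117, 95% interval -0.83 to -0.32; a 1.49-fold lower level), and edgeR's quasi-likelihood test gave an adjusted p of 0.00428 (Benjamini-Hochberg over 21261 genes). This was the 1 call among the 9 members. Of all genes tested, 21.6% were called in either direction, 8.73% were called lower, and 17.1% were lower in every crush library than in any naive one. For calls in either direction, 1 of 9 members was no larger a share than that of all genes. For lower calls, 1 of 9 stands beside 8.73%, and 2 of 9 members were lower without overlap, beside 17.1%. These shares were not compared by a test. The call of *Scn1a* held under all 18 alternative settings (log2 fold change -0.69 to -0.50, adjusted p 2.38e-05 to 0.0237).

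Among the uncalled alpha subunits of the control comparison, *Scn8a* had 173, 231 and 212 CPM in naive and 136, 185 and 179.9 CPM in crush ganglia (log2 fold change -0.30, SE 0.145, adjusted p 0.170). The libraries overlapped. *Scn11a* leaned the other way, from 263, 302 and 278 CPM to 297, 344 and 303 CPM (log2 fold change 0.17, SE 0.078, adjusted p 0.162), again with overlap. *Scn3a*, *Scn9a* and *Scn10a* had log2 fold changes of -0.05, -0.08 and 0.03, with 95% intervals within -0.33 to 0.23.

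The beta subunit *Scn4b* had 629, 768 and 694 CPM in naive and 543, 609 and 628 CPM in crush control ganglia, all of the latter lower. Its log2 fold change of -0.23 (SE 0.090) missed the threshold (adjusted p 0.0899) and passed it in 4 of 18 alternatives. *Scn2b* and *Scn3b* had log2 fold changes of -0.09 (adjusted p 0.586) and 0.09 (adjusted p 0.338). Over the 9 members the median was -0.08, against -0.02 over all genes, but it ranged from -0.14 (without naive control replicate 1) to -0.01 (without crush control replicate 1) when single libraries were left out. It was -0.03 without naive control replicate 2 and -0.13 without crush control replicate 2. When libraries were scaled to 9 pan-neuronal genes in place of all genes, 2 members were called lower instead of 1, and calls over all genes went from 2744 higher and 1857 lower to 1937 higher and 2085 lower.

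In cKO ganglia, crush gave 2 calls, *Scn1a* and *Scn2b*, both lower. *Scn1a* had 174, 145 and 189.8 CPM in naive and 132, 125 and 123 CPM in crush cKO libraries, without overlap (log2 fold change -0.42, SE 0.117, 95% interval -0.68 to -0.17, adjusted p 0.0252). *Scn2b*, a beta subunit that is disulfide-linked to its alpha subunit, had 44.8, 42.8 and 46.6 CPM in naive and 37.7, 31.5 and 38.6 CPM in crush libraries, also without overlap (log2 fold change -0.31, SE 0.101, adjusted p 0.0489). Of all genes 18.6% were called in either direction, 7.89% were called lower, and 17.6% were lower in every crush library than in any naive one. For calls in either direction, the share of members, 2 of 9, is near that of all genes. For lower calls, 2 of 9 stands beside 7.89%, and 4 of 9 members were lower without overlap, beside 17.6%. These shares were not compared by a test.

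Both cKO calls were less firm than the control call of *Scn1a*. *Scn1a* lost its call in 6 of 18 alternatives (log2 fold change -0.53 to -0.34, adjusted p 0.00431 to 0.266) and *Scn2b* in 11 of 18 (-0.38 to -0.24, adjusted p 0.0304 to 0.385). Without the 2 libraries whose sex transcripts go against the label, *Scn1a* was at -0.42 (adjusted p 0.0712) and *Scn2b* at -0.24 (adjusted p 0.203), so 0 members were called. With transcript-based sex in the model the values were -0.36 (adjusted p 0.266) and -0.25 (adjusted p 0.385). The count was also 0 without naive cKO replicate 1 or 3 or crush cKO replicate 2 or 3, 1 without crush cKO replicate 1, and 4 without naive cKO replicate 2.

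The other cKO members had smaller differences. *Scn11a* was at 369, 313 and 357 CPM in naive and 297, 293 and 312 CPM in crush cKO ganglia (log2 fold change -0.20, SE 0.078, adjusted p 0.0931), with every crush library lower. *Scn3b* went from 146, 148 and 138 CPM to 134, 116 and 135 CPM (log2 fold change -0.17, SE 0.064, adjusted p 0.0915), also without overlap. *Scn4b* had a log2 fold change of -0.22 (adjusted p 0.121), *Scn8a* -0.21 (0.375), *Scn10a* -0.18 (0.192), *Scn9a* -0.17 (0.301) and *Scn3a* 0.04 (0.869). The median over the 9 members was -0.20, against -0.01 over all genes.

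**Figure D2:**
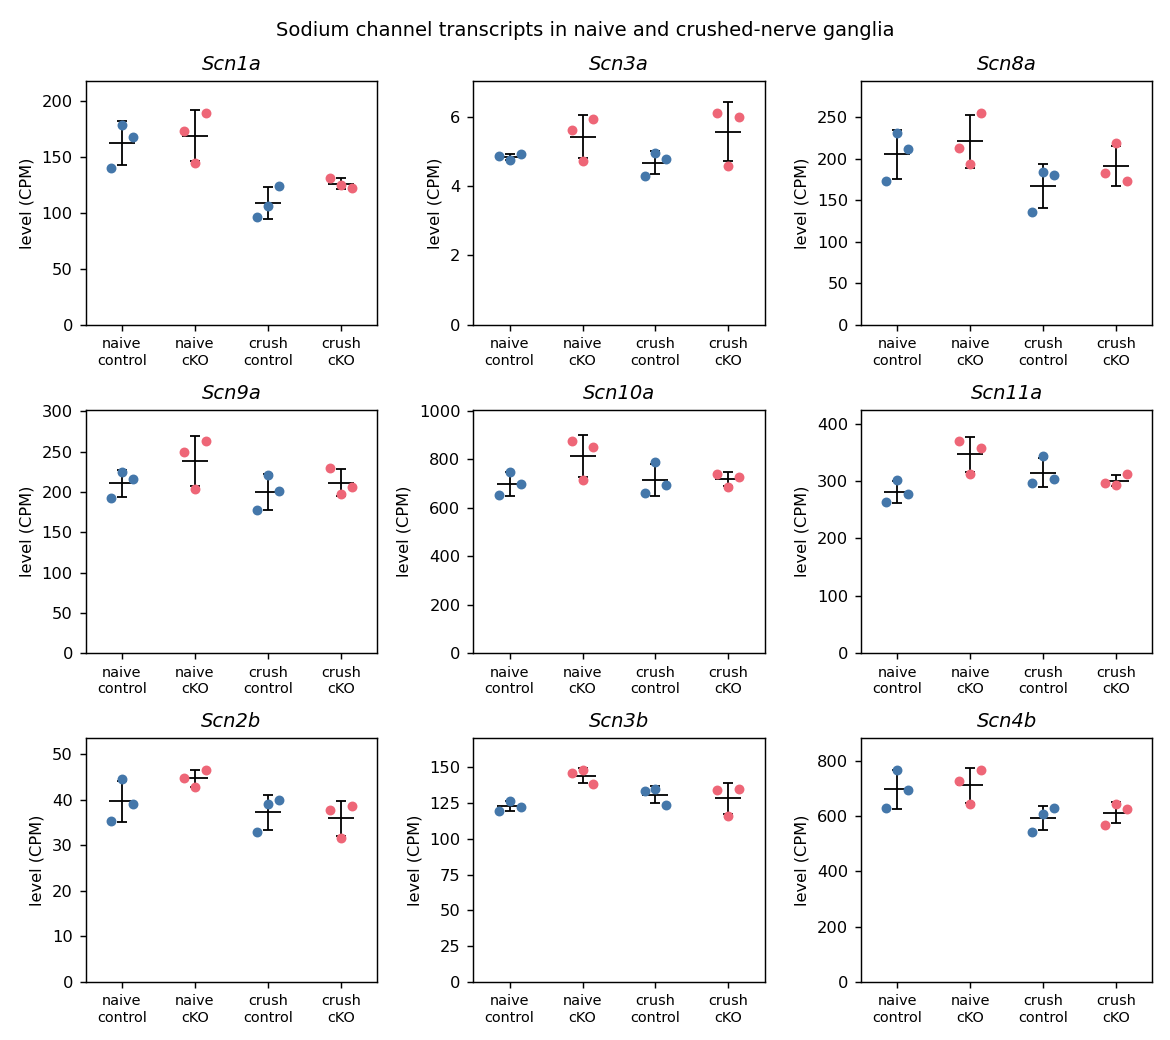
Each panel plots one gene's level in CPM (linear axis from 0) per library in naive and crush ganglia of both genotypes; points are libraries, and bars are the mean ± SD (n = 3). The *Scn1a* crush libraries lie below the naive libraries of the same genotype (96.3 to 125 against 140.4 to 179 CPM in controls).

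**Figure D3:**
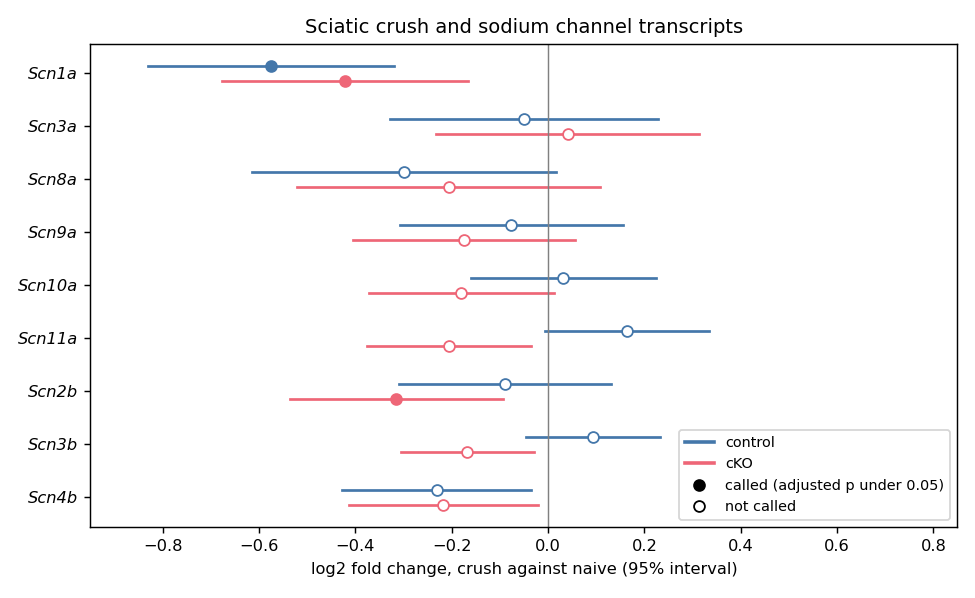
Points are log2 fold changes of crush against naive ganglia for the 9 members with 95% intervals, control in blue and cKO in red; filled points passed an adjusted p of 0.05. *Scn1a* is lowest in both genotypes (-0.58 and -0.42), and *Scn2b* is filled for cKO and open for control.

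The marker genes that moved in these comparisons are given as measured, since fewer cells of a type and less RNA per cell cannot be told apart in whole ganglia. Beside these counts, 21.6% of all genes were called in control and 18.6% in cKO ganglia (8.73% and 7.89% lower). Of 10 markers of myelinated neurons, 3 were called lower and 0 higher after crush in controls (*Pvalb* -0.35, *Runx3* -0.76 and *Calb1* -0.39), with a median of -0.25. In cKO ganglia 2 were called lower and 1 higher (*Spp1*, 0.57). Of 9 nociceptor markers, 3 were called higher in controls (*Trpv1*, *Ret* and *P2rx3*), while in cKO ganglia 2 were higher and 3 lower. Of the other lists, pan-neuronal markers had 1 higher and 1 lower of 9 in controls and 1 higher and 2 lower in cKO ganglia, satellite glia 2 higher and 1 lower of 6 in controls and 1 higher in cKO, and endothelial markers 1 lower of 5 in controls. Schwann cell, macrophage, fibroblast and muscle markers had 0 calls in either genotype. Summed myelinated-neuron markers were 9040 to 10900 CPM in naive and 8670 to 9470 CPM in crush control ganglia, and 9460 to 10800 CPM and 9220 to 11100 CPM in cKO ganglia. Their part in the lower level of *Scn1a* was not tested.

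Whether crush acted differently in the genotypes was tested as an interaction, with 0 of 9 members and 0% of genes called in edgeR's quasi-likelihood test. At an unadjusted p under 0.05 there were 2 members (of all genes 2.95%). *Scn11a* had an interaction of -0.37 on the log2 scale (SE 0.110, p 0.00585, adjusted p 1): its crush effect was 0.17 in control and -0.20 in cKO. *Scn3b* had -0.26 (SE 0.090, p 0.0134, adjusted p 1). Both kept their sign under all 23 alternatives, in which the lowest adjusted p was 0.858. For *Scn1a* the interaction was 0.15 (95% interval -0.21 to 0.51), so the crush effects in the genotypes were not shown to differ. By transcripts the crush controls were all female and crush cKO replicates 2 and 3 male, so sex is partly mixed with this contrast. With transcript sex in the model 0 members were called.

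The genotype comparison in naive ganglia asks how sodium channel transcripts of mice labelled cKO compare with those of controls without injury. No member was called (0 of 9; of all genes 0.00941%). At an unadjusted p under 0.05 there were 3 members, where 5.79% of all genes had such a p, and DESeq2 also called 0 members. *Scn11a* was at 263, 302 and 278 CPM in control and 369, 313 and 357 CPM in cKO libraries. All cKO values were higher, and the log2 fold change was 0.30 (SE 0.078, p 0.00222, adjusted p 0.754). *Scn3b*, a beta subunit found with the resistant channels in nociceptors, was at 119.5, 127 and 122 CPM in control and 146, 148 and 138 CPM in cKO, again without overlap (log2 fold change 0.23, SE 0.064, p 0.00322, adjusted p 0.754). *Scn10a* was at 651, 747 and 699 against 874, 716 and 852 CPM, with overlap (0.22, SE 0.088, p 0.0279, adjusted p 0.754).

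By sign alone, 9 of 9 members were higher in naive cKO ganglia, against 50.1% of all genes, with log2 fold changes from 0.03 (*Scn4b*) to 0.30 and a median of 0.17. Of all genes 11.5% had groups without overlap, and 2 members did. The sign count depended on scaling: relative to 9 pan-neuronal genes, which shifts the median of all genes by -0.09, 7 members were higher and 2 lower. It also depended on single libraries: without naive control replicate 1 or without naive cKO replicate 3, *Scn1a*, *Scn8a* and *Scn4b* were below 0 (-0.04 to -0.01 over both settings), and the median over the members was 0.12 and 0.11. *Scn4b* was also below 0 with limma on FPKM (-0.01). Nociceptor markers summed to 2200 to 2390 CPM in naive control and 2350 to 2560 CPM in naive cKO libraries, and 8 of 9 were higher by sign. Pan-neuronal markers were higher by sign in 8 of 9, while macrophage (6 of 6, median -0.31), Schwann cell (6 of 7, median -0.16), endothelial (4 of 5, median -0.05) and skeletal muscle markers (5 of 5, median -1.41) were lower by sign. Satellite glia markers were higher by sign in 5 of 6 (median 0.06), myelinated-neuron markers in 6 of 10 (median 0.02) and fibroblast markers in 2 of 5 (median -0.10). Of these lists 0 genes were called. Their part in the member values was not tested.

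After crush, no member was called between cKO and control (0 of 9; of all genes 0.00941%). With an unadjusted p under 0.05 there were 0 members and 2.72% of all genes, and DESeq2 called 0. The log2 fold changes ran from -0.07 (*Scn11a*, 95% interval -0.24 to 0.10) to 0.25 (*Scn3a*, -0.02 to 0.53). *Scn1a*, at 96.3, 107 and 125 CPM in control and 132, 125 and 123 CPM in cKO, had 0.21 (95% interval -0.04 to 0.47). These 2 genotype comparisons share no libraries with each other, but each shares its libraries with the crush comparisons above.

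The study's receptor is a transcription factor, so the promoters of the 2 members with the highest levels are shown. Each is 300 bases of GRCm38.p6 from RefSeq, from 250 before to 50 after the start, in the gene's direction. Capitals mark the core GCGTG of the response element that AhR binds, searched on both strands (CACGC on the other).
Scn10a (chr9:119718983-119719282, minus strand): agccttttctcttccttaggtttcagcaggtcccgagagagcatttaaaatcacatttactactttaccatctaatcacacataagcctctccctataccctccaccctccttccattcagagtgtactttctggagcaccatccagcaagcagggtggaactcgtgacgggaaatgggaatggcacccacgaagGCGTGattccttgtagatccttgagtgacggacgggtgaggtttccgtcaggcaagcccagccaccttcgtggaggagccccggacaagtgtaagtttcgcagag
Scn4b (chr9:45138374-45138673, plus strand): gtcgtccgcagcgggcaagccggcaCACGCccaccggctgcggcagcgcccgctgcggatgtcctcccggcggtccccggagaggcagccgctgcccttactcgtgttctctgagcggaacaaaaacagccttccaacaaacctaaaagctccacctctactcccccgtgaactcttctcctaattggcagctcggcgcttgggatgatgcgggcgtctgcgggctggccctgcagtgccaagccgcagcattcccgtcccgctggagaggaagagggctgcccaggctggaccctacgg
Each holds 1 match. Promoter entries were found for 7 of the 9 members, 8 entries in all because *Scn8a* has 2. The core was present in 4 of these 8, those of *Scn10a*, *Scn4b* and *Scn8a*, and in 32.39% of 32851 promoters of the same length. The motif TGANTCA, to which the injury-induced AP-1 factors bind, was in 0 of the 8 and in 7.81% of all promoters. A match of letters is a description of the sequence and not a bound site.

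In cultured neurons, no member was called between the genotypes (0 of 9; of all genes 0%). With an unadjusted p under 0.05 there was 1 member, and 8% of all genes, and DESeq2 called 0. That member was *Scn2b*, at 9.997, 9.51 and 9.46 CPM in control and 12.5, 11.7 and 10.2 CPM in cKO neurons (log2 fold change 0.25, SE 0.104, p 0.0433, adjusted p 0.611). All cKO libraries were higher, and the share of all genes without overlap is not given here for the neurons.

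Of the 9 members, *Scn1a*, *Scn8a* and *Scn4b* varied most among the control cultures, relative to their means. *Scn1a* was at 10.9, 20.1 and 38.6 CPM in control and 31.8, 32.5 and 37.2 CPM in cKO neurons (log2 fold change 0.52, SE 0.36, adjusted p 0.692). *Scn8a* was at 32.9, 51.2 and 89.2 against 77.4, 77.4 and 88.9 CPM (0.48, SE 0.296, adjusted p 0.671). *Scn4b* was at 118, 166 and 259 against 253, 263 and 244 CPM (0.48, SE 0.239, adjusted p 0.635). For all 3 genes control replicate 1 was lowest and control replicate 3 highest among the controls, the last within or above the range of the cKO cultures. Without control replicate 3 their log2 fold changes were 1.09, 0.94 and 0.83 (adjusted p 0.0967, 0.0821 and 0.0670). Without control replicate 1, the shallowest library, they were 0.21, 0.21 and 0.26. Summed markers of myelinated neurons were 3240, 3360 and 4640 CPM in the control and 4390, 4700 and 4700 CPM in the cKO cultures, and their part in these values was not tested.

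The nociceptor channels varied in the other genotype. *Scn11a* was at 354, 317 and 316 CPM in control and 356, 202 and 273 CPM in cKO neurons (log2 fold change -0.25, SE 0.179, adjusted p 0.699). *Scn10a* was at 497, 561 and 522 against 621, 405 and 511 CPM (-0.04, 95% interval -0.37 to 0.29). In both, cKO replicate 1 was the highest and cKO replicate 2 the lowest of the cKO cultures.

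**Figure D4:**
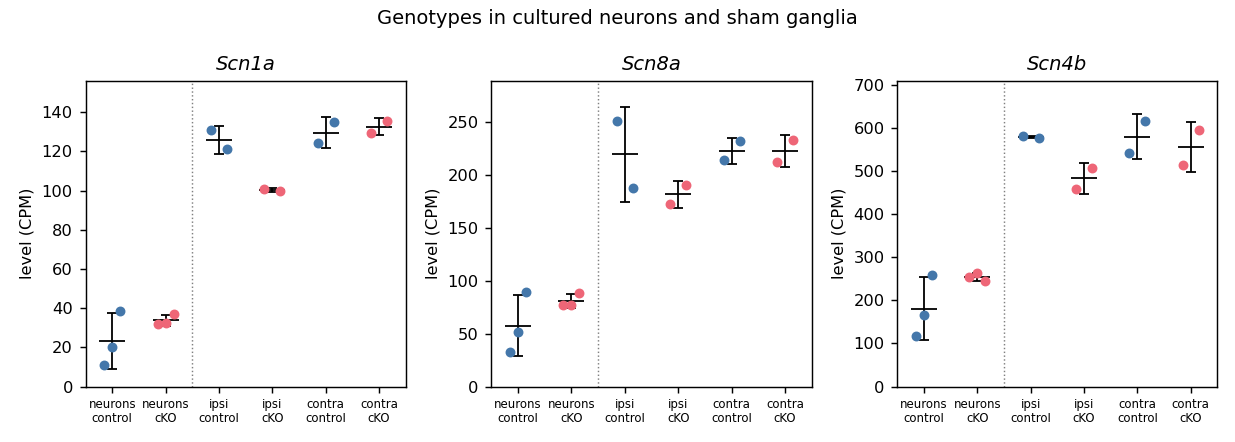
Levels in CPM (linear axis from 0) of *Scn1a*, *Scn8a* and *Scn4b* per library in neurons and sham ganglia, control in blue and cKO in red, with mean ± SD (n = 3 for neurons, n = 2 for sham groups). The control cultures spread from 10.9 to 38.6 CPM for *Scn1a*, and the 2 ipsilateral cKO ganglia (101 and 99.7 CPM) lie below the other sham ganglia. Neurons and sham ganglia were normalized separately.

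In sham ganglia of the operated side no member was called between the genotypes (0 of 9; of all genes 0.00451%; n = 2 mice each). At an unadjusted p under 0.05 there were 3 members, and 7.59% of all genes. With 2 mice each, groups separate easily: 3 members were higher and 2 lower in every cKO library than in any control library. The share of all genes without overlap is not given here. *Scn1a* was at 130.9 and 121 CPM in control and 101 and 99.7 CPM in cKO ganglia, without overlap (log2 fold change -0.33, SE 0.069, p 0.00155, adjusted p 0.498). DESeq2 and edgeR without a filter on low counts did call *Scn1a* (adjusted p 0.0196 and 0.0123). Those settings also called more of all genes, 0.69% and 1.79%. *Scn4b* was at 581 and 577 against 457 and 508 CPM (-0.26, adjusted p 0.576), and *Scn3b* at 89.0 and 91.0 against 126 and 99.2 CPM (0.32, adjusted p 0.646). Summed markers of myelinated neurons were 10700 and 11100 CPM in control and 9160 and 9430 CPM in cKO ganglia of this side, and their part was not tested. The muscle RNA of cKO replicate 2 was in 1 of these libraries, in which *Scn4a*, the channel of skeletal muscle, was at 19.6 CPM against 9.11 CPM in cKO replicate 1. The ipsilateral controls had *Scn4a* at 13.3 and 16.3 CPM, with muscle markers summing to only 3.09 to 19.7 CPM, so *Scn4a* did not simply follow them. Without cKO replicate 2, which leaves 1 cKO mouse assumed to vary like the other sham groups, the *Scn1a* value was -0.34.

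On the contralateral side 0 of 9 members were called (of all genes 0%), and 0 had an unadjusted p under 0.05 (of all genes 5.23%); DESeq2 called 0. *Scn1a* was at 124 and 135 CPM in control and 129.5 and 136 CPM in cKO ganglia (log2 fold change 0.03, 95% interval -0.13 to 0.19). The difference between the sides in the genotype effect, a contrast added after these values were seen, called 0 members (of all genes 0%). For *Scn1a* it was -0.36 (SE 0.097, p 0.00635, adjusted p 1), the 1 member with an unadjusted p under 0.05 (of all genes 4.08%). Since both sides come from the same mouse, the contrast was also fitted with the mouse as a block, which gave -0.36 (p 0.0134, adjusted p 0.807).

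The operated side was compared with the other side over both genotypes (n = 4 mice), with 0 of 9 members called (of all genes 0.00451%). An unadjusted p under 0.05 was found for 1 member and 7.56% of all genes. *Scn1a* averaged 113 CPM ipsilaterally and 131 CPM contralaterally (log2 fold change -0.22, SE 0.049, p 0.002, adjusted p 0.319), and the sides overlapped. This fit did not pair the sides of each mouse. With the mouse as a block, 0 members were called as well (of all genes 0.0181%). *Scn1a* was lower on the operated side in both cKO mice and control mouse 2, and higher in control mouse 1 (130.9 against 124 CPM). DESeq2 and the fit without a filter called *Scn1a* (adjusted p 0.0242 and 0.0326), and the remaining 14 alternatives did not. Those 2 settings called 0.903% and 1.09% of all genes. *Atf3* was at 42.3 to 179.7 CPM on the operated and 10.2 to 12.3 CPM on the other side.

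Cultured neurons differed from sham contralateral ganglia in all 9 members (9 of 9 called; of all genes 75.5%), with 8 lower (of all genes 36.4%) and 1 higher (39.1%). This comparison asks what dissociation and a day in culture go with. The cultures came from females without surgery and the ganglia from males after sham surgery, so sex, surgery, culture and the cells retained cannot be told apart. All values are on 1 scale over the 14 supplemental libraries.

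*Scn1a* and *Scn2b* fell most. *Scn1a* was at 10.4 to 38.0 CPM in the 6 cultures (the middle values were 31.5 and 32.2 CPM) and at 126 to 138 CPM in the 4 ganglia (log2 fold change -2.26, SE 0.233, adjusted p 1.69e-06; a 4.78-fold lower level). *Scn2b* was at 9.30 to 12.4 CPM in cultures and 36.4 to 42.6 CPM in ganglia (-1.961, SE 0.089, adjusted p 8.99e-10). *Scn8a* was at 31.1 to 87.95 against 216 to 237 CPM (-1.74, adjusted p 5.46e-06), and *Scn4b* at 112 to 260.0 against 522 to 628 CPM (-1.45, adjusted p 3.85e-06). In none of these did a culture reach the level of a ganglion. *Scn10a* was at 400.4 to 615 CPM in cultures against 1006 to 1297 CPM in ganglia (-1.17, adjusted p 1.49e-06). Smaller changes were found for *Scn3b* (-0.55, adjusted p 5.00e-05), *Scn11a* (-0.54, adjusted p 0.00401) and *Scn9a* (-0.36, adjusted p 0.00117).

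*Scn3a*, the embryonic channel, was the 1 member that rose. It was at 8.51 to 11.7 CPM in cultures and 3.47 to 4.77 CPM in ganglia, a 2.50-fold higher level (log2 fold change 1.32, SE 0.123, adjusted p 6.15e-07). It remained the lowest of the 9 members per kb of exon in the cultures. *Scn3a* was also higher when neurons were compared with naive ganglia in a joint fit of all 26 libraries (1.02, SE 0.098, adjusted p 3.28e-09).

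These changes are relative to a library with a different mix of cells. Pan-neuronal markers were all lower in the cultures (9 of 9 called, median log2 fold change -0.97), markers of myelinated neurons were lower in 9 of 10 and higher in 1 (median -1.43), nociceptor markers were lower in 7 of 9 and higher in 1 (median -0.76), Schwann cell markers were lower (7 of 7, median -4.15), and endothelial markers were higher (5 of 5, median 3.57). Scaled to the pan-neuronal genes, which shifts the median of all genes to 1.02, calls over all genes went from 9458 higher and 8796 lower to 17626 higher and 2228 lower. On that scale *Scn1a* (-1.29), *Scn2b* (-0.98), *Scn8a* (-0.77) and *Scn4b* (-0.48) were still called lower, and *Scn3a* (2.31) higher. *Scn9a* (0.62), *Scn11a* (0.45) and *Scn3b* (0.43) were called higher instead of lower, and *Scn10a* (-0.19, adjusted p 0.117) was not called. The direction for *Scn9a*, *Scn11a* and *Scn3b*, and the call for *Scn10a*, therefore depend on what the library is scaled to. Against naive ganglia in the joint fit, 8 of 9 members were called (of all genes 86.5%), 7 of them lower, while *Scn11a* was at 0.03 (95% interval -0.18 to 0.25, adjusted p 0.772).

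**Figure D5:**
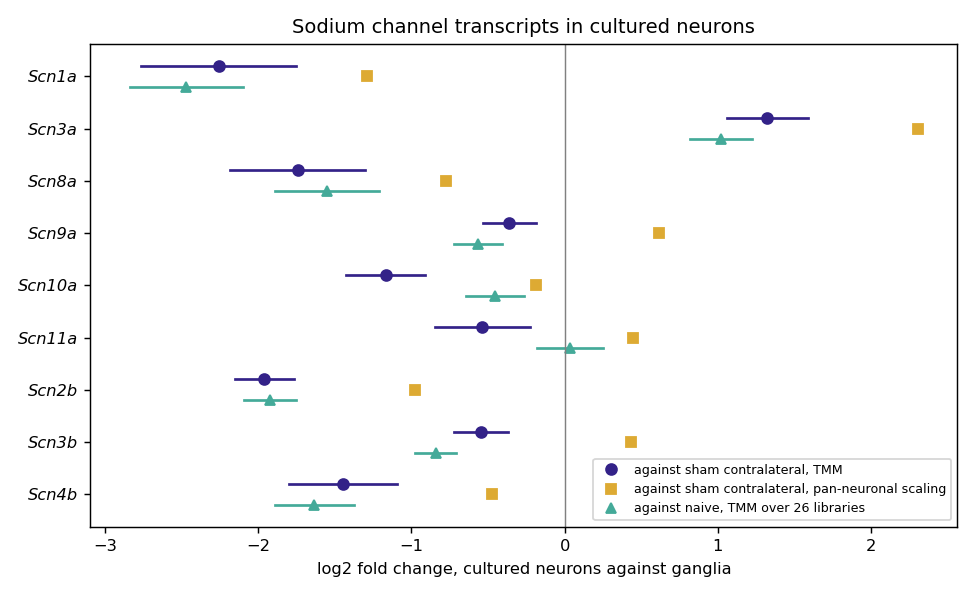
Log2 fold changes of cultured neurons against ganglia for the 9 members: against sham contralateral ganglia with TMM scaling (circles, 95% intervals), the same scaled to pan-neuronal genes (squares), and against naive ganglia in the joint fit (triangles, 95% intervals). *Scn1a*, *Scn2b*, *Scn8a* and *Scn4b* lie left of 0 and *Scn3a* right of 0 in all 3, while *Scn9a*, *Scn11a* and *Scn3b* change side.

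Among sodium channel genes outside the 9 members, *Scn4a*, the channel of skeletal muscle, and *Nalcn*, the sodium leak channel, were called lower after crush in cKO ganglia (-0.41, adjusted p 0.0283, and -0.22, adjusted p 0.0401). In control ganglia their log2 fold changes were -0.29 (adjusted p 0.0996) and -0.18 (adjusted p 0.0880). *Scn7a*, which is expressed by glia as well, averaged 328 CPM in naive and 336 CPM in crush ganglia of controls, and was not called. In cultured neurons *Scn4a* was lower (-1.88, adjusted p 1.74e-06), from 14.1 to 3.80 CPM, while *Scn2a* was at 7.06 CPM in sham contralateral ganglia and 5.93 CPM in cultures and was not called (-0.25, adjusted p 0.116). None of these genes was called between genotypes in naive, crush, sham or cultured samples.

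Of 22 genes whose products bind, anchor or modify sodium channels, 2 were called higher and 1 lower after crush in control ganglia, and 3 higher and 3 lower in cKO ganglia, beside 21.6% and 18.6% of all genes called. *S100a10*, encoding the annexin partner that carries Nav1.8 to the membrane, was higher in both genotypes (0.24, adjusted p 0.0217, in control and 0.24, adjusted p 0.0203, in cKO ganglia). *Fgf14*, an intracellular channel modulator, was lower in both (-0.66, adjusted p 0.0360, and -0.78, adjusted p 0.0183), from levels of 4.05 and 4.04 CPM, and an antisense gene holds 21.5% as many counts at its position. In cKO ganglia *Fgf11* was also higher (0.36, adjusted p 0.0259), and *Tmem233* (-0.26, adjusted p 0.0101) and *Nedd4l*, a ubiquitin ligase of the channels (-0.30, adjusted p 0.0304), were lower. In cultured neurons 2 of the 22 were called higher and 16 lower, beside 75.5% of all genes called. The adhesion molecule *Nrcam* was higher (1.03, adjusted p 1.01e-07). *Prrt2* (-1.54), *Calm3* (-1.47), *Fgf12* (-1.27) and *Tmem233* (-1.79) were lower there. A gene on the same strand shares most of *Prrt2*, so that value is uncertain. None of the partners named here was called between genotypes.

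Across the 12 naive and crush libraries the likeness of the members is given as correlations of log2 CPM, which describe these libraries and share their conditions and depth. *Scn1a* and *Scn4b* had a Pearson r of 0.905, *Scn8a* and *Scn4b* 0.887, and *Scn1a* and *Scn8a* 0.837. *Scn9a* and *Scn10a* had 0.921 and *Scn10a* and *Scn11a* 0.914. *Scn9a* was also like *Scn8a* (0.758) and *Scn1a* (0.711), and *Scn2b* had 0.735 with *Scn1a* and 0.751 with *Scn10a*, so the members did not split into separate sets. The r of *Scn8a* and *Scn3b* was -0.003. Among 14608 other genes, those most like each member over these libraries were *Pcdh7* (0.991) and *Sv2b* (0.987) for *Scn1a*, *Myh10* (0.988) and *Atp2b3* (0.971) for *Scn8a*, and *Nat8l* (0.982) and *Chga* (0.963) for *Scn4b*. They were *Ubr3* (0.954) and *Tenm1* (0.939) for *Scn9a*, *Arfgef2* (0.945) and *Pcdha1* (0.940) for *Scn10a*, and *Asap1* (0.930) and *Lclat1* (0.928) for *Scn11a*. For *Scn2b* they were *Kit* and *Ocrl* (both 0.946), for *Scn3b* *Ipo8* (0.906) and *Dynlt1a* (0.874), and for *Scn3a*, with the fewest counts, *Crhr2* (0.881) and *Ccng1* (0.857).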

How the data were processed

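RNA from mouse DRG was extracted with an RNeasy Plus Mini kit and made into TruSeq Stranded mRNA libraries, per the labels' protocols. The authors deposited counts per gene and FPKM made with Trim Galore, HISAT2 and featureCounts on mm10, per the submitters' processing notes; versions, annotation release and strand setting are not given in the sources used here. In the deposited FPKM the length behind the value was the whole gene span, introns included, for 99.0% of genes, and the span is 3.282 times the exon length at the median. The counts themselves may therefore hold intronic reads, in which case levels and shares per kilobase of exon overstate genes with long introns. Counts are compared per kilobase of exon, from GENCODE M21 (GRCm38), in which 55141 of 55401 identifiers (99.53%) had a symbol.

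Counts were tested with edgeR 4.0.16 in R 4.3.3: filterByExpr (minimum count 10, minimum total 15), TMM scaling, 1 mean per group, quasi-likelihood tests and Benjamini-Hochberg adjustment over all genes tested at 0.05, two-sided. Fits covered the 12 naive and crush libraries (21261 genes), the neurons (23295), the sham ganglia (22160), both of these sets together (24192) and all 26 libraries (24101). Standard errors are the log2 fold change over the square root of the F statistic, and 95% intervals use the test's degrees of freedom. CPM used the TMM library sizes of each set, and log2 CPM a prior count of 2. The method was tested on simulated data. Alternatives were DESeq2 1.42.0, RLE scaling, scaling to pan-neuronal genes, other filters, limma 3.58.1 on log2(FPKM + 0.1), sex covariates, a replicate block and leaving out each library; the difference between the sham sides in the genotype effect, with and without a mouse block, was added after the values were seen. Replicates are labelled as separate mice, except that both sham sides come from the same mouse.

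The replicate numbers of different naive, crush and neuron groups share no animal, and their deviations from group means correlated at -0.418 to 0.412. For the sham sides the labels give the pairing (r 0.229 in control and -0.159 in cKO mice).

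Named genes were the members, other sodium channel genes, partners that were called (at most 5 per direction by smallest p), *Ahr*, *Thy1*, *Atf3* and *Gal* as checks, and for each member the 2 genes most like it with a mean of at least 1 CPM. Members and gene lists were chosen with earlier results of these data known. *Gal* was the 1 gene called between the sham sides (log2 fold change 1.29, adjusted p 0.000659). Some genes and 1 sequence that this rule covers are not reported here.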

Additional observations from a re-analysis of the deposited data

How the results depend on the processing

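Of 186 alternative counts of called members, 164 stayed within 1.5 times the main count and 22 did not. The control crush count of 1 became 2 at an adjusted p of 0.1, scaled to pan-neuronal genes, and with limma on log2(FPKM + 0.1), and lay between 1 and 2 when single libraries were left out (2 without naive control replicate 1). The cKO crush count of 2 became 4 in those 3 settings, 1 with RLE scaling, with no filter and with the replicate block (*Scn2b* -0.31, adjusted p 0.0601), 0 with transcript sex as a covariate or without the mismatched libraries, and 0 to 4 when single libraries were left out. The block changed no other call. The sham ipsilateral genotype count and the count between sham sides, both 0, became 1 with DESeq2 and with no filter. Calls over all genes rose there from 1 to 153 and 626 for genotype and from 1 to 200 and 381 between sides. For all these counts the cause was not tested. In culture, *Scn9a* (0.618), *Scn11a* (0.445) and *Scn3b* (0.435) reversed when scaled to pan-neuronal genes, and *Scn11a* (0.033) against naive ganglia. Among 72 pairs of member and comparison with an unadjusted p of at least 0.05, the sign changed in 90 of 1192 alternatives, at least once in 36 of the pairs, and 1 alternative gave a call. With 2 or 3 mice per group the precision is limited, and *Scn3a* rested on the fewest counts.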
